A study of Mus musculus with 24 samples.

Results

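The genes described here are Cdh1, Cdh2, Epcam, Vim, Snai1, Zeb1, Zeb2, Twist1 and Fn1, which code for cadherins, for other markers of epithelial and mesenchymal cells, and for the transcription factors that switch cells between those states. They were chosen by symbol, and all 9 had a row among the 19780 genes of the control table and the 19979 genes of the paused table. Poly(A) RNA came from mouse E14 embryonic stem cells, a pluripotent line grown on gelatin in serum and leukaemia inhibitory factor. The cells were wild type or from 1 of 2 Smad2 knockout lines, Smad2_KO1 and Smad2_KO2, and each was sampled in control and paused cultures, with 4 libraries in each of 6 groups. Control groups had no inhibitor, and paused groups had the mTOR inhibitor INK128 at 200 nM for 12 h. The labels do not say how the knockout lines were made or whether each is a single clone, nor whether the 4 libraries of a group came from separate cultures, so the p-values measure the spread between these libraries, which may be technical.

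Epithelial cells are held together by adherens junctions, in which E-cadherin (Cdh1) on one cell binds E-cadherin on the next and catenins tie it to actin. In an epithelial-to-mesenchymal transition (EMT), factors of the Snail, Zeb and Twist families repress Cdh1 and other epithelial genes, and cells gain N-cadherin (Cdh2), vimentin (Vim) and fibronectin (Fn1). TGF-beta, activin and Nodal signals, which Smad2 carries to the nucleus, are known inducers of this programme, and it is used in the embryo when cells leave the epiblast through the primitive streak. Embryonic stem cells are an epithelium-like cell type with high E-cadherin.

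Snail and Zeb proteins bind an E-box with the letters CAGGTG, or CACCTG when it is read from the other strand, and the start of a gene can be searched for it. RefSeq promoter sequences of build GRCm38.p6 run from 250 bases before to 50 bases after a start set by that source. They were found for 5 of the 9 genes: Epcam, Vim, Snai1, Zeb2 and Twist1. The 250 bases before the starts of Epcam (chr17:87635729-87635978, plus strand) and Snai1 (chr2:167537945-167538194, plus strand) are shown because they hold the E-box and because the 2 genes moved in opposite directions. Both stretches end at the base before the annotated start. They run 5′ to 3′, with the E-box letters in capitals.
Epcam: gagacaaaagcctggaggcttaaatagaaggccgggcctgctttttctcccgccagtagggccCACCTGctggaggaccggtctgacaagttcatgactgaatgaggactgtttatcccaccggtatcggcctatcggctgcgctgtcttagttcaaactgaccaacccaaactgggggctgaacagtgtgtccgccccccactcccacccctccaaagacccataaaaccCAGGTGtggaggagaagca
Snai1: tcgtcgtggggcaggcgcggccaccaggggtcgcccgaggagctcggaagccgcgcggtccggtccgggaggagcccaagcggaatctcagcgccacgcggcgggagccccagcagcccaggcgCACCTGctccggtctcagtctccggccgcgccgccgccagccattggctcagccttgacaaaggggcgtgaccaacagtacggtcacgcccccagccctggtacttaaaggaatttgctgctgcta

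In the Epcam window the E-box stood at 2 places, starting 187 and 19 bases before the gene's start, and in the Snai1 window at 1 place, 126 bases before it. Of the 32817 promoter windows of 300 bases in the table, 20.2% held the E-box at least once and 2.88% at least 2 times. No E-box was found in the windows of Vim, Twist1 or the 4 starts of Zeb2. The Vim window (chr2:13574061-13574360), and those of all Zeb2 starts but the outermost, lie inside the annotated genes given below. The bases before the annotated start of Vim were therefore not searched. The Smad box (GTCTG, or CAGAC on the other strand) occurred once in the window of Epcam and once in that of Twist1, sharing no base with an E-box, and 49.6% of all windows held it. These matches describe letters only, and binding was not measured.

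The values come from 2 tables of test results, 1 for control and 1 for paused cells, which list for every gene a normalized read count averaged over libraries, a log2 change with its standard error (SE), and an adjusted p. They give no value for a single library, so depth, the spread of the 4 libraries and the 2 knockout lines taken singly could not be examined. The numerator of the change is not named in the tables, and changes are read as knockout over wild type because Smad2 was lower in both: its mRNA stood at 78.6% of the wild-type level in the authors' deposited table of control cells and at 64.6% in that of paused cells. The opposite reading would turn every direction below. The stem cell markers Pou5f1, Sox2, Nanog, Zfp42, Esrrb, Klf4 and Dppa5a had means between 8797 and 51709.6 normalized counts in the authors' deposited table of control cells. The fibroblast markers summed to 22.0 ppm of the summed mean counts there and 22.9 ppm in paused cells, with Lum in neither table and Dcn only in the control table, at a mean of 4.17. In bulk RNA, fewer cells of a type and less RNA per cell cannot be told apart.

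Loss of Smad2 went with lower mRNA of both cadherins, of Epcam and of Zeb2, and with higher mRNA of Snai1 and Zeb1, in control and in paused cells alike. Vim, Fn1 and Twist1 did not pass the test in either condition. At an adjusted p under 0.05, 4 of the 9 genes were lower, 2 higher and 3 not called in each of the authors' deposited tables. These counts stand against a background in which 41.4% of all tested genes were called in control cells, 19.5% as higher and 21.9% as lower, and 42.6% in paused cells, 20.5% as higher and 22.0% as lower. The same 6 genes were called in the same direction in both tables, which holds for 30.3% of the 19134 genes in both. By the labels, both conditions used the same wild-type cells and the same 2 knockout lines. The 2 tables are therefore not independent samples of lines. Differences between the lines other than Smad2 could enter both tables, and their part was not tested. The median change of the 9 was -0.08 in control and -0.25 in paused cells, beside 0.001 and -0.002 over all genes. When the statistic was scaled so that its middle spread over all genes equalled that of a standard normal, Epcam alone was called in each table, with 1.48% and 2.25% of all genes.

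Cdh1 codes for E-cadherin, the adhesion molecule of adherens junctions, and lies at chr8:106603351-106670246 (GRCm38, plus strand). It was the most abundant of the 9 genes per length in control cells, and its fall was small. Its mean of 24393 normalized counts in the authors' deposited table of control cells was above that of 98.7% of genes. For control cells the authors' deposited table gave Cdh1 a log2 change of -0.24 (SE 0.04, adjusted p = 5.24e-09), which is 84.9% of wild type (95% interval 80.6 to 89.3). In paused cells the mean was 21412 and the fall 0.27 by the authors' deposited table (SE 0.05, adjusted p = 4.40e-07), to 82.9% of wild type (77.5 to 88.7). The call was lost in both conditions when the change was tested against one of at most 1.2-fold, a test that called 10.6% of all genes in each table.

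Epcam codes for an adhesion molecule of epithelial and pluripotent cells, and lies at chr17:87635979-87651129 (plus strand). Of the 9 genes it had the test statistic farthest from 0 in both conditions. At a mean of 4849 normalized counts in the authors' deposited table of control cells, Epcam fell by 0.50 (SE 0.04, adjusted p = 1.65e-26), to 70.8% of wild type (66.6 to 75.3). At a mean of 4786 in the authors' deposited table of paused cells, it fell by 0.58 (SE 0.06, adjusted p = 2.20e-23), to 67.0% (62.1 to 72.2). The fall in Epcam was thus larger than that in Cdh1 in each condition, with 95% intervals that did not overlap, although the tables hold no test between genes.

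Cdh2 codes for N-cadherin, which mesenchymal and neural cells use for adhesion, and lies on chromosome 18 at bases 16588877 to 16809246 (minus strand). It had the largest change of the 9 genes in both conditions and fell together with Cdh1, not opposite to it. In control cells Cdh2, at a mean of 475 normalized counts in the authors' deposited table, fell by 1.30 (SE 0.15, adjusted p = 2.52e-17), to 40.6% of wild type (33.3 to 49.5). By the authors' deposited table of paused cells, at a mean of 428, it fell by 1.53 (SE 0.25, adjusted p = 9.17e-09), to 34.7% (24.8 to 48.6). Its standard error was higher than that of 91.6% of the 500 genes nearest in mean in control cells and of 97.8% in paused cells, and how far the knockout lines differ in Cdh2 was not tested.

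Vim and Fn1, the other mesenchymal markers, were abundant and did not pass the test. Vim codes for the intermediate filament protein of mesenchymal cells (chr2:13573927-13582826, plus strand). Its change was -0.08 in the authors' deposited table of control cells (SE 0.12, adjusted p = 0.648, mean 9669) and -0.25 in that of paused cells (SE 0.20, adjusted p = 0.317, mean 8562). The 95% intervals, 80.2 to 112% of wild type in control and 64.1 to 110.0% in paused cells, leave room for a fall of the size seen in Cdh1. The standard errors of Vim exceeded those of 99.4% and 99.2% of the 500 genes of nearest mean, where the medians were 0.05 and 0.04. Fn1 codes for fibronectin, a matrix protein that cells bind through integrins (chr1:71585520-71653200, minus strand). Its change was 0.08 in the authors' deposited table of control cells (SE 0.09, adjusted p = 0.511, mean 26649) and -0.11 in that of paused cells (SE 0.06, adjusted p = 0.148, mean 59403). The intervals of 93.5 to 119% and 85.2 to 101% of wild type do not reach the fall of Cdh2. Fn1 overlaps the antisense gene Apol7d, whose means were 11.0 and 13.1 in the authors' deposited tables.

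The 4 transcription factors split 3 ways. Snai1 codes for Snail, a zinc finger repressor of Cdh1 (chr2:167538195-167542814, plus strand), and it rose. Snai1 in the authors' deposited table of control cells rose by 0.65 (SE 0.13, adjusted p = 8.00e-06, mean 501), or 1.57-fold (95% interval 131 to 188% of wild type). By the authors' deposited table of paused cells it rose by 0.74 (SE 0.10, adjusted p = 4.85e-13, mean 734), or 1.67-fold (146 to 189.9%). Zeb1, a zinc finger and homeodomain repressor of epithelial genes (chromosome 18, bases 5591860 to 5775467, plus strand), rose as well. Its change was 0.60 in the authors' deposited table of control cells (SE 0.10, adjusted p = 2.29e-08, mean 663), or 1.52-fold, and 0.35 in that of paused cells (SE 0.07, adjusted p = 8.07e-06, mean 633), or 1.28-fold. In paused cells the call of Zeb1 was lost against a change of at most 1.2-fold.

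Zeb2, the paralog of Zeb1 and also known to bind Smad proteins (chr2:44983632-45117395, minus strand), moved the other way. By the authors' deposited table of control cells Zeb2 fell by 1.08 (SE 0.17, adjusted p = 9.30e-09), to 47.2% of wild type (37.3 to 59.9), at a mean of 75.6 normalized counts. By the authors' deposited table of paused cells it fell by 1.04 (SE 0.19, adjusted p = 5.85e-07), to 48.6% (37.4 to 63.1), at a mean of 93.0. Zeb2 lies under the minimum of 5 ppm that was tried as a filter on low values (230.3 normalized counts for control and 221 for paused cells), as does Twist1. An antisense gene, Zeb2os, overlaps Zeb2, has no row in either table, and could share reads with it if strand was not used in counting. Twist1, a basic helix-loop-helix factor of mesoderm and neural crest (chr12:33957671-33959829, plus strand), had changes of -0.08 (SE 0.13, adjusted p = 0.654, mean 114) and -0.11 (SE 0.15, adjusted p = 0.565, mean 156) in the authors' deposited tables of control and paused cells. Its intervals ran from 78.5 to 113% and from 75.8 to 113% of wild type, so a change of the size seen in Zeb2, Snai1 or control Zeb1 lies outside them.

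**Figure D1:**
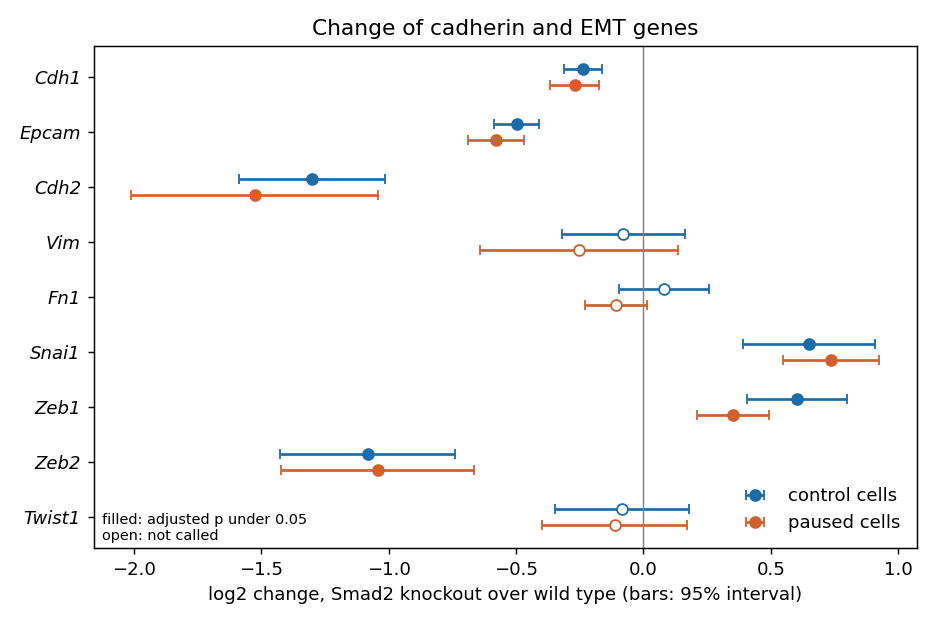
Log2 change of each of the 9 genes in Smad2 knockout over wild-type cells (horizontal axis), in control (blue) and paused cells (orange), with 95% intervals from the deposited standard errors. Filled points had an adjusted p under 0.05. Cdh1, Epcam, Cdh2 and Zeb2 lie left of 0 and Snai1 and Zeb1 right of it in both conditions, while the intervals of Vim, Fn1 and Twist1 cross 0.

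Levels were compared between genes as mean normalized counts per kb of exon, taken from GENCODE M21 on GRCm38, the build that the submitters' processing notes name as mm10. The means pool knockout and wild-type libraries, so for genes that changed with genotype they describe neither genotype alone, and the order can differ between genotypes. In control cells Cdh1 led with 5333 per kb, followed by Fn1 (2281), Epcam (2209) and Vim (2039). Snai1 followed at 309 per kb, and Twist1 (70.2), Zeb1 (64.6) and Cdh2 (58.9) came next, the last 2 of which changed in opposite directions with genotype. Zeb2 was lowest, at 3.79 per kb. The pooled mean of Cdh1 was 90.5 times that of Cdh2 per length in the control table and 88.3 times in the paused table, a ratio that is higher in knockout than in wild-type cells because Cdh2 fell more. The pooled mean of Zeb1 exceeded that of Zeb2 17.1-fold per length in control and 13.2-fold in paused cells, likewise a mix of 2 genotypes. No spread over libraries is given with these means, so neighbours such as Fn1, Epcam and Vim cannot be ordered with any confidence.

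The tables of control and paused cells were normalized separately, so levels set across them have no test. Fn1 took 579 ppm of the summed means in control and 1341 ppm in paused cells, 2.32 times as much, and with 5084 per kb it passed Cdh1 (4681). Snai1 had 1.52 times the ppm of control cells in the paused table, Twist1 1.41 times and Zeb2 1.28 times. Cdh1, Cdh2, Epcam, Vim and Zeb1 had between 0.913 and 1.03 times their ppm of control cells. The Fn1 level therefore differed between the tables while its genotype change was not called in either.

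**Figure D2:**
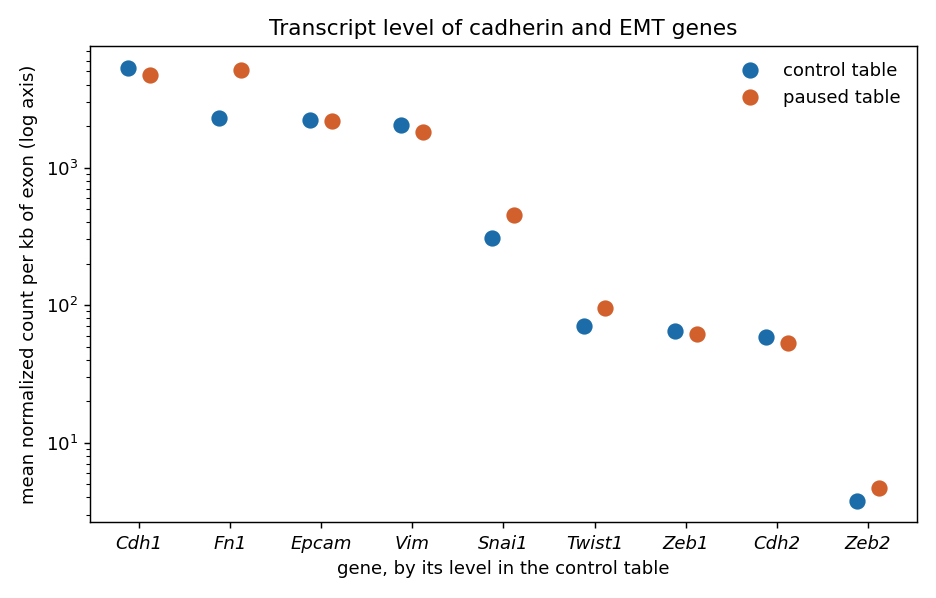
Mean normalized count per kb of exon (log axis) of the 9 genes in the control (blue) and paused (orange) tables, each point the mean over the libraries of a table. The means pool both genotypes. Cdh1 and Cdh2 are 90.5-fold apart in the control table, and Fn1 has the largest distance between the tables, which were normalized separately.

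Whether pausing altered the effect of Smad2 loss on these genes was tested by subtracting the control change from the paused change and dividing by the root of their summed squared SE (normal test, two-sided, Benjamini-Hochberg adjusted over 19134 genes). The change of Smad2 mRNA itself was -0.35 (SE 0.07) in control and -0.63 (SE 0.06) in paused cells by the authors' deposited tables. What that inequality adds to the differences below was not tested. None of the 9 passed, beside 1.44% of all genes, and 1 of the 9 had an unadjusted p under 0.05. That gene was Zeb1, whose rise was smaller in paused cells by 0.25 (SE 0.12, adjusted p = 0.354, 95% interval -0.50 to -0.01). Among the falls, the difference was -0.03 for Cdh1 (95% interval -0.15 to 0.09), -0.08 for Epcam (-0.22 to 0.06) and 0.04 for Zeb2 (-0.47 to 0.55). For Cdh2 it was -0.23 (-0.79 to 0.34), an interval wide enough to hold a difference of 1.5-fold. For Snai1 it was 0.09 (-0.23 to 0.41). Fn1 was at -0.19 (-0.40 to 0.03, adjusted p = 0.480), with values of opposite sign in the 2 conditions, neither of them called. For Vim and Twist1 the differences were -0.17 (-0.63 to 0.28) and -0.03 (-0.42 to 0.36).

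The other genes of the pathway were taken from lists written with earlier results on these data known, and are counted here without the 9 genes. Over all genes, 21.9% were called lower and 19.5% higher in the control table, with 22.0% and 20.5% for paused cells, and each count below is to be read against those shares. Of 10 adherens junction genes, 8 fell and 2 rose in control cells and 6 fell and 1 rose in paused cells, with median changes of -0.20 and -0.19. For each gene named from here on, the control change comes before the paused change. Vcl (vinculin, which links junctions to actin) was at -0.60 and -0.62 in the authors' deposited tables, Afdn (afadin) at -0.47 and -0.43 and Nectin3 at -0.33 and -0.19, all called as lower, and Nectin1 at 0.41 and 0.43, called as higher. Of 15 tight junction genes, 8 fell and 7 were not called in control cells, and 10 fell and 1 rose in paused cells, with medians of -0.21 and -0.22. The claudin Cldn7 fell (-1.46 and -0.82 in the authors' deposited tables), and so did Marveld3 (-1.25 and -1.09), Marveld2, or tricellulin (-1.03 and -0.81), and Cgn, or cingulin (-0.58 and -1.09). Against at most 1.2-fold, 2 adherens junction genes were called in each condition and 5 and 6 tight junction genes, beside 10.6% of all genes. With the scaled statistic none of these 25 genes was called in either condition, beside 1.48% and 2.25% of all genes.

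Among 18 other epithelial regulators and markers, 9 fell and 9 were not called in control cells, and 8 fell and 1 rose in paused cells, with medians of -0.48 and -0.29. Against at most 1.2-fold 4 and 3 of them were called, beside 10.6% of all genes, and with the scaled statistic 1 in control cells and none in paused cells, beside 1.48% and 2.25%. Rab25, a GTPase of epithelial vesicle transport, fell (-1.02 and -0.72 in the authors' deposited tables). Krt19, a keratin, fell in control cells (-0.89 by the authors' deposited table), and its paused value of -0.13 was not called. Ovol1, a repressor of EMT factors, was the gene that rose in paused cells (0.68 in the authors' deposited table), with a control value of -0.03 that was not called. Esrp1, which directs epithelial splicing, was chosen after its values were seen: it fell (-0.59, adjusted p = 1.01e-25, and -0.33, adjusted p = 2.00e-07, in the authors' deposited tables).

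Of the other 9 EMT transcription factors, 2 rose and 5 fell in control cells. Of the 8 with a paused row 2 rose and 5 fell, and the medians were -0.27 and -0.29. Against at most 1.2-fold, however, 1 was called in each condition, near the 10.6% of all genes. With the scaled statistic none was called, beside 1.48% and 2.25% of all genes. Twist2 (-2.47 and -2.07) and Foxc1 (-1.14 and -0.93) fell in the authors' deposited tables, at means of at most 22.1 normalized counts. Foxc2 rose in paused cells (1.02 in the authors' deposited table) at a mean of 11.9, and its control value of 0.39 was not called. Of 13 further mesenchymal markers, 6 fell and 1 rose in control cells, with a median of -0.86, and in paused cells 4 fell and 1 rose of 12, with a median of -0.04. Of these markers 6 and 5 were called against at most 1.2-fold, beside 10.6% of all genes. The scaled statistic called 1 in each condition, beside 1.48% and 2.25% of all genes. The contractile genes Acta2 (-1.68 and -1.90) and Cnn1 (-2.47 and -2.32) fell in the authors' deposited tables. The matrix gene Tnc, for tenascin C, fell (-2.18 and -2.93 in the authors' deposited tables) at means of 44.0 and 39.9. Tagln fell in control cells (-1.87 by the authors' deposited table) at a mean of 4.98, and its paused value of -0.29 was not called.

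Of 13 genes for fibronectin receptors and fibrillar matrix, 6 fell and 2 rose in control cells and 5 fell and 2 rose in paused cells, with medians of -0.27 and -0.14. The test against at most 1.2-fold called 5 in each condition, beside 10.6% of all genes. The scaled statistic called 1 in control cells and none in paused cells, beside 1.48% and 2.25% of all genes. The fibrillar collagens Col1a1 and Col3a1 had the steepest falls here, by the authors' deposited tables, with -2.79 and -3.53 for Col1a1 and -2.95 and -2.22 for Col3a1. Among the integrins, Itgb3 rose (1.18 and 1.25) and Itga8 fell (-1.04 and -1.19) in the authors' deposited tables. Itgb1, the beta subunit of the main fibronectin receptor, was chosen after its values were seen: it fell (-0.63 and -0.65 in the authors' deposited tables), while its partner Itga5, chosen likewise, had values of 0.04 and 0.06 that were not called.

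Of the 14 other classical and type II cadherins with a control row, 4 rose and 2 fell, and of the 12 with a paused row also 4 rose and 2 fell, with medians of 0.18 and 0.25. Cdh5, the cadherin of endothelial cells, rose (2.52 and 3.10 in the authors' deposited tables) at means of 114 and 192 normalized counts. Cdh10 (-1.85 and -1.96) and Cdh13 (-0.84 and -1.56) fell in the authors' deposited tables, at means between 27.4 and 60.6. Cdh20 rose in control cells (1.71 by the authors' deposited table) at a mean of 7.37 and had no row in the paused table. The 6 calls in each condition were close to the share of all genes called, 41.4% and 42.6%. Against a change of at most 1.2-fold, 3 and 5 of these cadherins were called, beside 10.6% of all genes. With the scaled statistic 1 was called in each condition, beside 1.48% and 2.25% of all genes.

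Of 10 secreted ligands known to drive EMT, 7 fell and 1 rose in control cells and 8 fell and 2 were not called in paused cells, with medians of -0.81 and -0.94. Against at most 1.2-fold 5 and 6 of them were called, beside 10.6% of all genes. With the scaled statistic none was called in either condition, beside 1.48% and 2.25% of all genes. Wnt3 (-2.45 and -3.06), Fgf8 (-2.13 and -2.44) and Tgfb2 (-2.08 and -1.80) fell in the authors' deposited tables. Inhba, which codes for an activin subunit, fell as well (-3.69 and -3.91 in the authors' deposited tables), at means of 4.95 and 5.53.

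**Figure D3:**
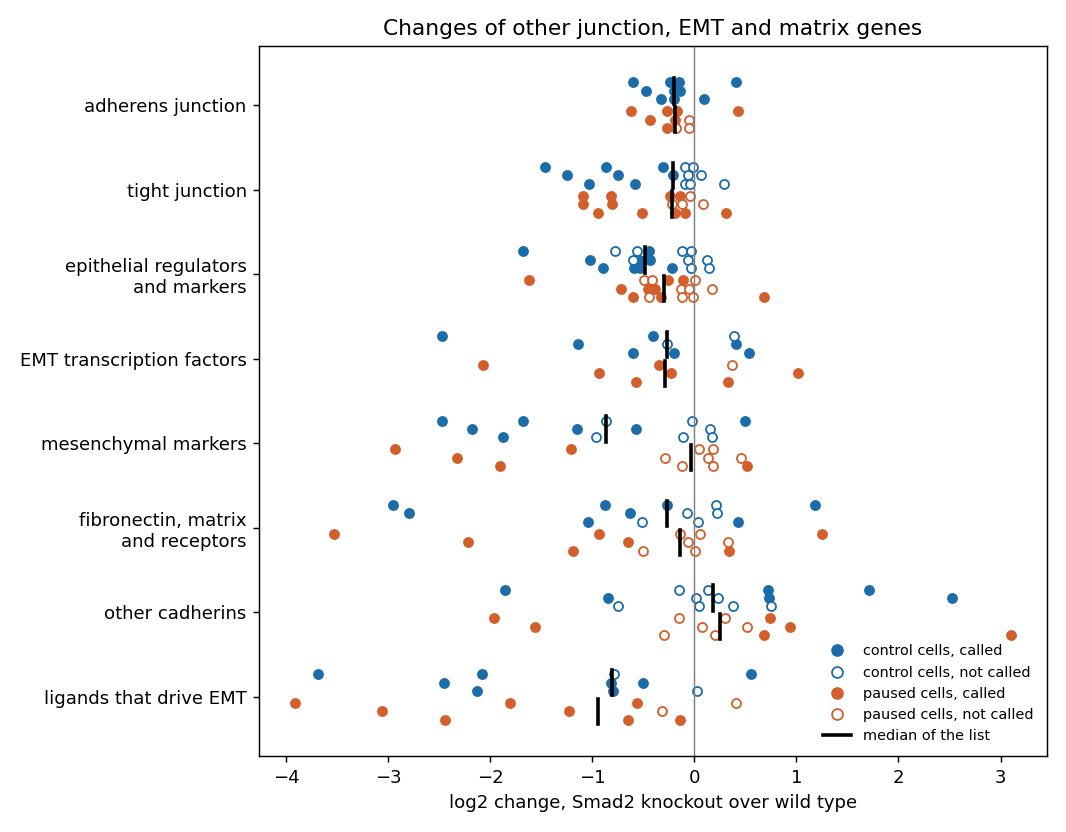
Log2 change in Smad2 knockout over wild-type cells of each gene of 8 lists, without the 9 genes described above, in control (blue) and paused cells (orange). Filled points had an adjusted p under 0.05 and black bars are list medians. Junction and epithelial genes lie mostly left of 0, with medians from -0.48 to -0.19, and the other cadherins lie on both sides. The remaining lists also have medians below 0, given for control and then paused cells. These are -0.81 and -0.94 for the ligands, -0.86 and -0.04 for mesenchymal markers, -0.27 and -0.29 for EMT factors, and -0.27 and -0.14 for matrix and receptors.

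Markers of other cell types moved beside these genes. Of 10 primitive and parietal endoderm markers, 9 were higher in each condition, with median changes of 0.99 and 0.82, and their summed means came to 535 and 515 ppm. Sparc, the gene of that list that was not called, had its highest mean, 14049 in the authors' deposited table of control cells. It held 305 and 229 ppm of those sums. Of the 7 stem cell markers, Klf4 (0.56 and 0.26) and Nanog (0.32 and 0.18) rose in the authors' deposited tables, and Pou5f1 fell without INK128 (-0.18), its paused value of -0.08 not being called. Sparc, Klf4, Nanog and Pou5f1, and Col1a2, Tubb3, Nes, Pax6, Sox1 and Tfap2c below, were chosen after their values were seen. Of the 6 primitive streak markers, 5 had a row: 3 fell and 1 rose in control and 2 fell in paused cells, at 14.5 and 14.1 ppm in sum, with Mesp1 in neither table. Of 7 fibroblast markers with a control row, 4 fell, and 3 fell of the 6 with a paused row. The falls of Col1a1, Col1a2 and Col3a1 in both conditions were already counted above among the fibrillar matrix genes. Among 5 neuroectoderm markers, 2 fell and 1 rose in each condition, and the list summed to 183 and 98.9 ppm. Tubb3, not called in either condition, held 126 and 43.4 ppm of those sums. The called genes of the list were Nes (-1.74 and -2.48), Pax6 (-0.63 and -1.19) and Sox1 (0.98 and 1.18) in the authors' deposited tables. Of 6 trophoblast markers 3 rose and 1 fell in each condition. The list summed to 151 and 168 ppm, of which Tfap2c, not called in either condition, held 110.1 and 124 ppm. The part of a shift in cell types in the changes of Cdh1, Cdh2, Epcam, Snai1, Zeb1 and Zeb2 was not tested.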

How the data were processed

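Groups of the 24 libraries follow the genotype and treatment in their titles. Per the submitters' processing notes, FastQC, Trim Galore, HISAT2, featureCounts and DESeq2 were used with build mm10; versions, annotation, use of strand and the libraries in each fit are not given in the sources used here. The mean normalized count is a signal value averaged by the authors, per the file headers. The change and its standard error are log2 values, deposited with a score (change over standard error), a p-value and an adjusted p-value. The score was recomputed from the change and standard error, the p-value from the score, and the adjusted p-value from the p-value. No gene was off by over 1 percent, with the very smallest p-values left out of the checks of p and adjusted p. The change and standard error themselves could not be recomputed.

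Computed here were counts of calls, 95% intervals (normal), the difference between conditions, levels per kb (GENCODE M21), list counts and promoter letters, with Python 3.11.15, numpy 2.4.6, scipy 1.17.1, pandas 2.3.3 and matplotlib 3.10.9. The tests were tried on simulated data with normal noise of the size of the deposited standard errors, drawn separately for each table. Such data cannot show whether those standard errors are right or whether the tables are independent. Depth per library is unknown. The genes, lists and tests were chosen with earlier results of these data known. Besides the 9 genes and Smad2, the 4 genes with the largest called change per pathway list are named, except 1 that is not reported here; the text marks any gene picked after its values were seen. Genes were not named for a likeness of pattern, as each has only 2 changes.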

Additional observations from a re-analysis of the deposited data

Results flagged for a closer look

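None of the 9 genes differed between conditions by the test of the difference. Over them and the pathway and marker lists, 141 genes in both tables, 4 did, beside 1.44% of all genes. Fbn1, which codes for the microfibril protein fibrillin 1, had a paused change higher than the control change by 0.61 (SE 0.15, adjusted p = 0.00953): the authors' deposited tables give a called fall (-0.27) without and a called rise (0.34) with INK128. Ctnnb1, which codes for the E-cadherin partner beta-catenin, differed by -0.15 (SE 0.04, adjusted p = 0.0311): the authors' deposited tables give a called rise (0.10) without INK128 and a value of -0.05, not called, with it. The stem cell factor Klf4 differed by -0.30 (SE 0.08, adjusted p = 0.0264), with called rises of 0.56 without and 0.26 with INK128 in the authors' deposited tables. Eomes, a primitive streak factor, differed by 0.89 (SE 0.25, adjusted p = 0.0326), with a called fall (-0.94) without INK128 and a value of -0.06, not called, with it in the authors' deposited tables. All 4 were named after their values were seen.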

How the results depend on the processing

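The 7 alternatives were an adjusted p under 0.01, a change of at least 1.5-fold, a test against at most 1.2-fold, a statistic scaled to its middle spread, equal summed counts, a median change of 0 and a minimum of 5 ppm. Of these only equal summed counts and a median of 0 can alter a change, by one shift for all genes, and neither turned the sign of any of the 9. Zeb2 and Twist1 lie under the minimum of 5 ppm and were not tested there. With the scaled statistic 1 gene was called in control and 1 in paused cells instead of 6, and with a change of at least 1.5-fold 3 were called in paused cells (Cdh2, Snai1 and Zeb2). The other settings left 4 to 6 calls in each condition, and under all 7 the difference between conditions was called for 0 of the genes tested. Why the scaled statistic removed most calls was not tested; the deposited standard errors are the only measure of precision. Counts over all genes fell from 8189 to 293 in control and from 8504 to 450 in paused cells with the scaled statistic. They were 2972 and 2935 at 1.5-fold, and 2090 and 2122 against 1.2-fold. For the difference 275 became 102 at an adjusted p under 0.01, 72 at 1.5-fold, 2 against 1.2-fold and 35 when scaled. No paired analysis was possible because the tables hold no value per library, and for the same reason no library was left out.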
